A study of Rattus norvegicus with 8 samples.

Results

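Rat liver RNA was compared across all 4 treatments of a crossed design, to describe where the response to dexamethasone in AICAR-treated animals differed from the response in animals without AICAR. All 8 of 8 arrays were used, 2 for each treatment, and 31042 probe sets were tested. For each probe set the interaction was computed from group means of log2 values, as the combination minus AICAR, less dexamethasone minus vehicle. A value of 0 means that the fold changes of the agents multiply.

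The animals were male Sprague-Dawley rats, an outbred stock, of 180 to 200 g. Vehicle rats received saline by both routes. The dexamethasone group received 1.5 mg/kg into muscle, with saline in the abdomen, and the AICAR group received 0.7 g/kg into the peritoneal cavity, with saline in muscle. The combination group received both agents, and liver was taken at 8 h in every group. No ages are given. Nothing in the labels ties an array to an animal or says that duplicates were biological, and p-values therefore cover the spread of duplicates that could be technical.

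Dexamethasone is a synthetic glucocorticoid. It binds the glucocorticoid receptor, which enters the nucleus, raises genes of glucose production, amino acid breakdown and its own feedback, and lowers many inflammatory genes. AICAR is taken up by cells and phosphorylated to an AMP mimic that activates AMPK, the kinase that senses low cellular energy and that in liver restrains the synthesis of fat and glucose. The question of the design, as the series states its aim, was how AMPK bears on glucocorticoid action.

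The response to the combination was often not the product of the single responses. The interaction passed the test at 4858 of 31042 probe sets (15.6%; limma, Benjamini-Hochberg adjusted p under 0.05), with 2679 above 0 (8.63%) and 2179 below 0 (7.02%). Taking 1 probe set a gene, it passed for 2841 of 14217 genes (20.0%), above 0 for 11.9% and below 0 for 8.05% of all genes. For comparison, dexamethasone alone was called for 22.7% of genes, AICAR alone for 15.2%, dexamethasone in AICAR-treated liver for 38.2% and AICAR in dexamethasone-treated liver for 25.4%. The call count was 3130 without AICAR replicate 1, 2910 without combination replicate 1 and 3041 without combination replicate 2.

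Genes fell into classes by which effects passed the test. Of the 2841 called genes, 625 (22%) were antagonised, meaning that dexamethasone changed them alone and that its effect with AICAR was smaller or no longer called. Another 380 (13.4%) were synergistic, with a larger effect of the same sign when AICAR was present. In 290 genes (10.2%) the dexamethasone effect was reversed in sign. Other genes were called for dexamethasone with AICAR present but not for dexamethasone alone. In 462 of them (16.3%), here termed AICAR-opposing, it moved the level back against a called AICAR effect, and in 987 (34.7%), termed emergent, there was no called AICAR effect of opposite sign. The last 97 called genes met none of these definitions. As shares of all 14217 genes, against which the counts in gene lists can be read, antagonised genes made up 4.4%, synergistic 2.67%, AICAR-opposing 3.25%, emergent 6.94% and reversed 2.04%.

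Absence of a call does not show additivity. A gene was therefore called additive where either agent alone had a called effect, the interaction was not called and the 95% interval of the interaction lay between -0.5 and 0.5 on the log2 scale. This held for 1474 genes (10.4% of all). A further 1131 genes responded to a single agent but had wider intervals and stayed unresolved, and 8771 had no called response to either agent alone and no called interaction. Since the interaction subtracts the dexamethasone effect, choosing genes by a called dexamethasone effect favours the antagonised class by construction, so the class shares are descriptions.

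**Figure D1:**
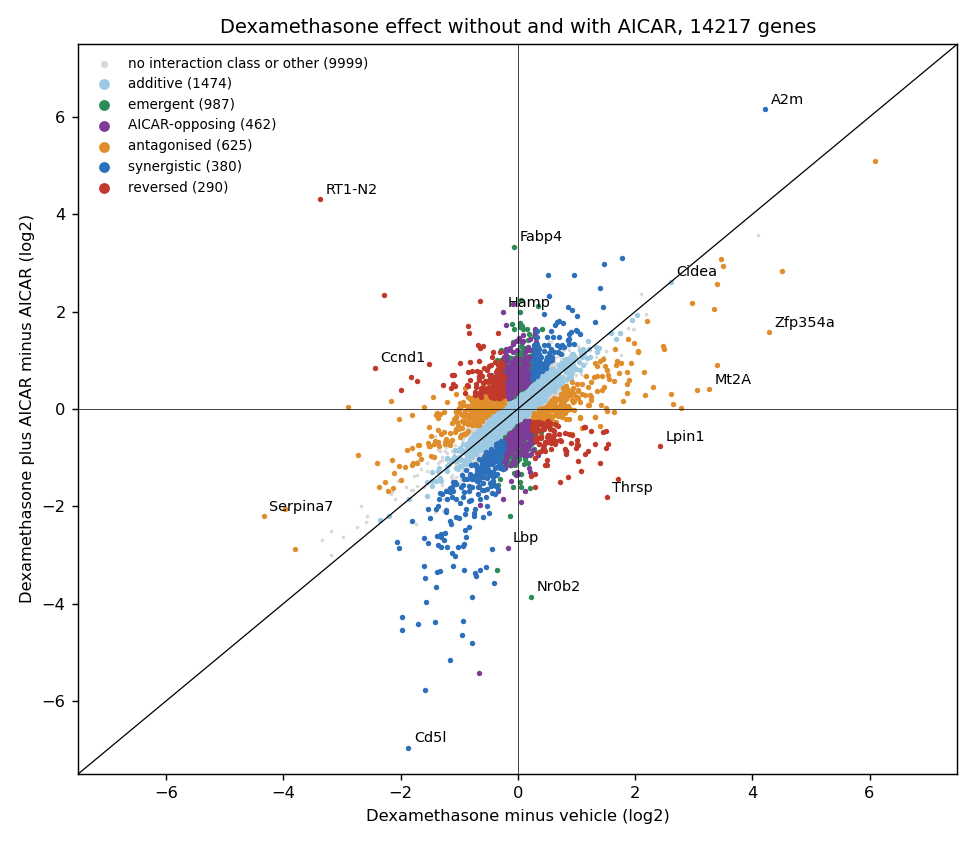
Each point is 1 of 14217 genes, with the dexamethasone effect without AICAR on the x axis and with AICAR on the y axis, both in log2 units, and colours mark the response classes. Additive genes lie near the diagonal, and reversed genes such as Lpin1 (2.43 and -0.77) in the quadrants of opposite sign. Antagonised genes lie between the diagonal and the x axis or, where the effect with AICAR was not called, on either side of that axis.

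Most genes that dexamethasone changed alone also changed the same way under AICAR. In AICAR-treated liver, 18.7% of all genes rose and 19.4% fell with dexamethasone. Of 1190 genes that rose with dexamethasone (8.37% of all), 693 (58.2%) also rose with it in AICAR-treated liver, 104 (8.74%) fell and 393 (33%) were not called. Of 2033 that fell (14.3%), 1165 (57.3%) fell again, 186 (9.15%) rose and 682 (33.5%) were not called. AICAR alone lowered 8.96% of genes and raised 6.22%, and in dexamethasone-treated liver it raised 14.0% and lowered 11.3%. Of the 885 genes it raised alone, 272 (30.7%) were raised again in dexamethasone-treated liver, 132 (14.9%) were lowered and 481 (54.4%) were not called. No test was made of the difference between these shares. The dexamethasone effects without and with AICAR share no array, and across the 14217 genes they correlated with r = 0.53, a description over genes that are not independent.

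All interactions are relative to the common distribution of values to which the arrays had been set. The 24 poly-A spike-in probe sets, RNA of fixed amount added with the sample, averaged 8.12 on vehicle, 8.52 on dexamethasone, 8.40 on AICAR and 7.70 on combination arrays. Their interaction was -1.1, and all 24 lay below 0, between -1.41 and -0.71. Centring on them moves every interaction up by 1.1, which gives 30440 calls with 99.4% above 0. Of the 1145 genes called below 0, 187 had an interaction larger than that shift. Of the 37 gene lists used below, 23 had a median below 0, and only the macrophage and MHC class II medians exceeded the shift. The other medians below 0 turn sign under that centring, and whether the spike-ins or the common distribution is nearer to RNA per cell was not tested. The spike-ins also read 0.39 for dexamethasone minus vehicle, 0.28 for AICAR minus vehicle and -0.71 for combination minus AICAR. That centring takes these values from the effects of every gene. Response classes were not computed under it, so the classes and directions given here hold for the common distribution. The share of called probe sets above 0 was 55.1%, against 47.4% after cyclic loess and 44.0% with arrays centred on brighter probe sets. Array medians were 5.22 to 5.26 and replicates correlated at 0.997 to 0.998. The 3′ minus 5′ difference of the actin controls was 2.23 in vehicle, against 2.04, 1.82 and 1.80 after dexamethasone, AICAR and both, and its part in the results was not tested.

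The members that lead each class show the patterns on single arrays. Lpin1, which encodes a phosphatidic acid phosphatase of triglyceride synthesis and a coactivator, read 7.94 and 7.98 in vehicle, 10.34 and 10.44 after dexamethasone, 8.39 and 8.32 after AICAR, and 7.69 and 7.48 after both. Both dexamethasone arrays were high and both combination arrays were the lowest of all 8, so no group overlapped another. Dexamethasone raised it 5.39-fold alone and lowered it 1.71-fold in AICAR-treated liver, an interaction of -3.20 ± 0.12 (SE, adjusted p = 2.63e-06, limma). Multiplying the single effects gives 10.79 for the combination, against a measured mean of 7.59. Both of its probe sets were called with the same sign.

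Zfp354a, a zinc finger gene, was antagonised. It read 7.29 and 7.20 in vehicle, 11.54 and 11.52 after dexamethasone, 7.32 and 7.40 after AICAR, and 8.96 and 8.92 after both. The combination lay between dexamethasone and the other groups. The rise was 19.5-fold without AICAR and 2.98-fold with it (interaction -2.71 ± 0.10, adjusted p = 2.44e-06).

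C1qa, the A chain of complement C1q and a macrophage product in liver, was synergistic. Its values were 9.85 and 9.86 in vehicle, 8.62 and 8.79 after dexamethasone, 10.23 and 10.27 after AICAR, and 5.15 and 5.01 after both. The combination arrays stood far below all others. Dexamethasone lowered it 2.22-fold alone and 35.9-fold in AICAR-treated liver (interaction -4.01 ± 0.12, adjusted p = 7.62e-07).

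Hamp, which encodes the iron hormone hepcidin, was AICAR-opposing. It read 11.53 and 11.71 in vehicle, 11.26 and 11.46 after dexamethasone, 9.46 and 9.45 after AICAR, and 11.46 and 11.43 after both. Only the AICAR arrays were low, and the combination overlapped the dexamethasone arrays. The interaction was 2.25 ± 0.13 (adjusted p = 2.03e-05).

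Nr0b2 encodes SHP, a nuclear receptor without a DNA-binding domain that represses bile acid synthesis, and it was emergent. It read 8.84 and 8.95 in vehicle, 9.15 and 9.10 after dexamethasone, 8.73 and 8.64 after AICAR, and 4.91 and 4.75 after both. Neither agent alone gave a called change, and the combination was 16.8-fold below vehicle. Its interaction was -4.09 ± 0.12 (adjusted p = 6.55e-07).

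**Figure D2:**
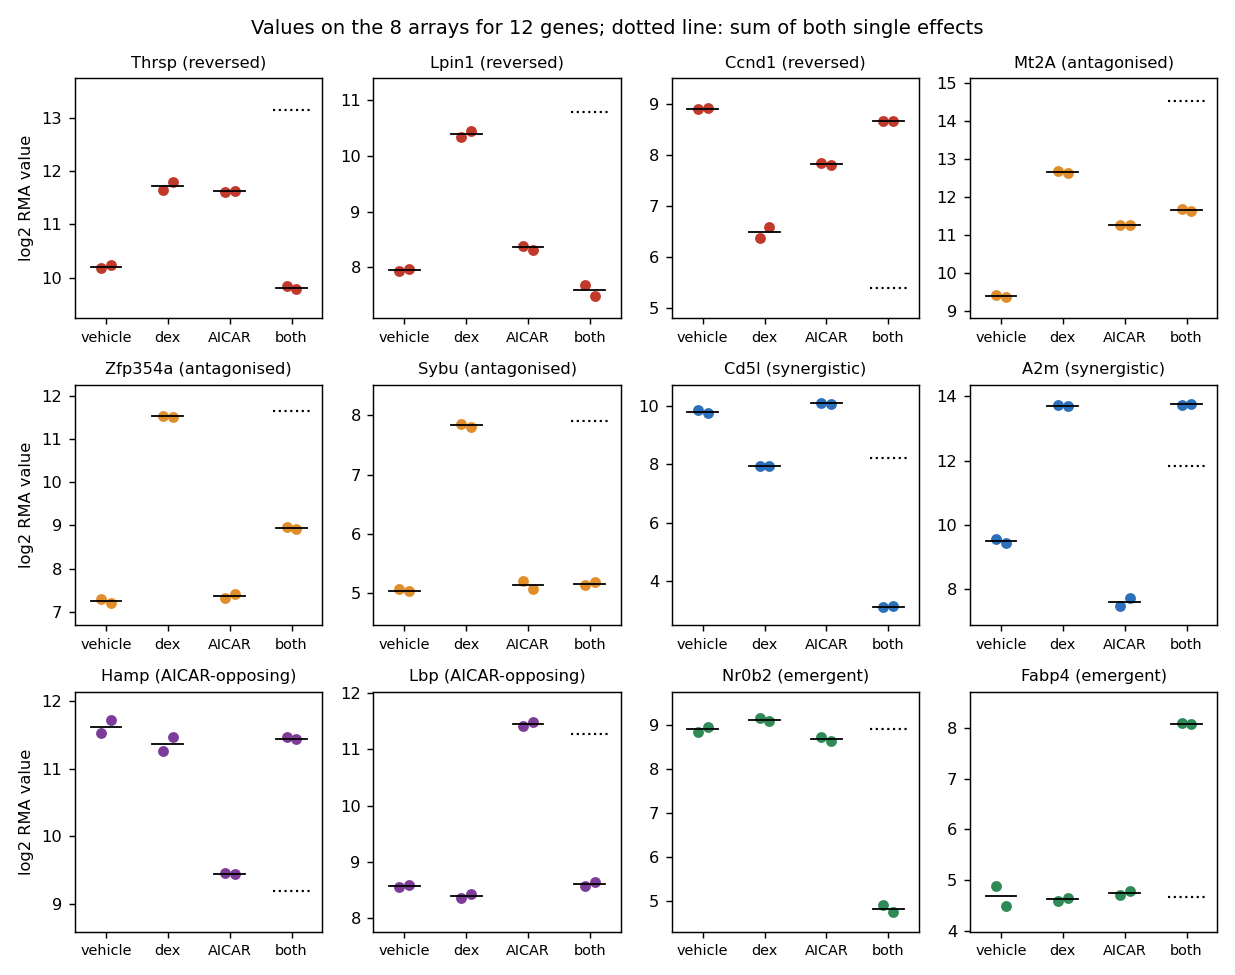
Log2 RMA values on the 8 arrays for 12 genes of the 5 interaction classes, with 2 points a group, a bar at the group mean and a dotted line at the combination value that multiplied single effects would give. Measured combination values lie away from the dotted line in every panel, below it for Nr0b2 (4.83 measured) and above it for Fabp4 (8.08 measured).

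The promoter windows of these 5 genes are shown because each holds letters of a factor through which glucocorticoid or cytokine signals act on liver genes. They are RefSeq windows of the GRCr8 assembly, from 250 bases before the gene start to 50 after, written 5′ to 3′ on the gene's strand. In each class the gene is the one with the largest interaction, among the named genes with a window, whose window holds a motif. Capitals mark AGAACA, the core site of a glucocorticoid receptor monomer, in Lpin1, on the opposite strand and so written TGTTCT. In the others they mark TTCNNNGAA, the letters bound by STAT factors. The windows lie at chr6:45108893-45109192 on the minus strand for Lpin1, chr10:35897013-35897312 on the plus strand for Zfp354a, chr5:154419884-154420183 on the minus strand for C1qa, chr1:95300222-95300521 on the minus strand for Hamp and chr5:151062910-151063209 on the plus strand for Nr0b2.
Lpin1: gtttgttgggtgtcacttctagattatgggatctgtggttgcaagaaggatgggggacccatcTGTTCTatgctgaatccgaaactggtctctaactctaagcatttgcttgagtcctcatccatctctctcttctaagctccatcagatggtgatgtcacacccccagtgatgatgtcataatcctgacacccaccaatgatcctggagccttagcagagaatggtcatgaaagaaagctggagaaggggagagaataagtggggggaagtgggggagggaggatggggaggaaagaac
Zfp354a: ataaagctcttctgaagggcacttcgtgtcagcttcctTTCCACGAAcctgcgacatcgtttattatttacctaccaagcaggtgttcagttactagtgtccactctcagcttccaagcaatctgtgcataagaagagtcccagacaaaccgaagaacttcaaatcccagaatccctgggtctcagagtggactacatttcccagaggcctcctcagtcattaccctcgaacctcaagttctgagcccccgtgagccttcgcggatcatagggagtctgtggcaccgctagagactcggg
C1qa: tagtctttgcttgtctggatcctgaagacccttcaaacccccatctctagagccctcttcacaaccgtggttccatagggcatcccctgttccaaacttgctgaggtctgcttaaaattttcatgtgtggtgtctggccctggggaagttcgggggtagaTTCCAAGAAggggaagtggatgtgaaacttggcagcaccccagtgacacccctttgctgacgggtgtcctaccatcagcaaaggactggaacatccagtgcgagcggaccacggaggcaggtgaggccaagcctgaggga
Hamp: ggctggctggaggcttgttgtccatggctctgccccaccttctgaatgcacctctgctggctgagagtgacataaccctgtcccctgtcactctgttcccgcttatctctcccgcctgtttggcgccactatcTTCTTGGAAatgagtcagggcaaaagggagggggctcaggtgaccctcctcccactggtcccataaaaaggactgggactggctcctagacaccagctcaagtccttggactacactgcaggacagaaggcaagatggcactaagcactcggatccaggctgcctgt
Nr0b2: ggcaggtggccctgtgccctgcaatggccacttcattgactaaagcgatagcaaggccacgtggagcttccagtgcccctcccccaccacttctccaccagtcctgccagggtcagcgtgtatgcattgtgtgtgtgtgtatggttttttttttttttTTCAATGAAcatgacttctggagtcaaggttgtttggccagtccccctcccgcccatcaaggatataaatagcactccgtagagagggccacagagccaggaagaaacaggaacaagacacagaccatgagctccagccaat
A match is a description of letters and does not show a bound site. The monomer site started 187 bases before the start of Lpin1, and the STAT letters 212 bases before that of Zfp354a, 90 before C1qa, 117 before Hamp and 92 before Nr0b2. Both strands were searched, and the site of the receptor dimer, AGAACA and TGTTC with NNN between them, holds the monomer site, so these searches overlap. The monomer site stood in 13.4% of the 11733 windows of measured genes and in 20.1% of all 27457 windows. By class it stood in 12% of antagonised, 14.3% of synergistic, 13% of AICAR-opposing, 15.9% of emergent, 13.2% of reversed and 11.7% of additive genes. STAT letters stood in 6.99% of measured windows and in 4.51% to 8.12% by class. The dimer site was in 1 window of a measured gene, of the class with no called response, and the decamer bound by NF-kB in 12.

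Of the glucocorticoid receptor's known target genes, 28 of 35 measured had a called interaction (80.0%, against 20.0% of all genes), 23 below 0 and 5 above. The list's median interaction was -0.57, against 0.01 over all genes. Dexamethasone alone raised 28 of the 35, and in AICAR-treated liver it raised 19 and lowered 10. Most of the list thus responded to dexamethasone, while most of all genes did not. Among all genes called for dexamethasone alone, 483 of 1190 that rose and 812 of 2033 that fell had a called interaction. By class, 15 were antagonised, 8 reversed, 4 synergistic and 2 additive.

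Among the antagonised targets, Tsc22d3, which encodes the anti-inflammatory protein GILZ, kept part of its response. It read 8.37 and 8.09 in vehicle, 10.30 and 10.24 after dexamethasone, 8.46 and 8.51 after AICAR and 9.69 and 9.64 after both, so it rose 4.13-fold alone and 2.26-fold with AICAR (interaction -0.87, adjusted p = 0.00402). Mt2A, a metallothionein that binds zinc and copper, rose 9.64-fold alone, from 9.42 and 9.39 in vehicle, and 1.33-fold with AICAR. Its combination arrays, 11.70 and 11.64, lay above both AICAR arrays, 11.27 and 11.26, and below both dexamethasone arrays, 12.70 and 12.64.

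Dusp1, a phosphatase that switches off p38 MAPK, rose by 1.51 on the log2 scale alone, and its value with AICAR was -0.04, which was not called, while its other probe set was reversed (1.57 and -0.65). Sds, the serine dehydratase that feeds serine into glucose, rose by 2.16 alone and by 0.75 with AICAR. Zfp36, which destabilises cytokine mRNAs, rose by 0.69 alone and had a value of -0.03 with AICAR that was not called. These 3 genes therefore lost most or all of their rise.

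The smaller interactions of 3 genes were fragile. Tat, the tyrosine aminotransferase used as a classical marker of glucocorticoid action, rose 1.77-fold alone and 1.38-fold with AICAR (interaction -0.36, adjusted p = 0.0357), and its call was lost without any 1 of the 8 arrays, with an adjusted p of up to 0.106. Per1, a clock gene, had an interaction of -0.61 (adjusted p = 0.0385; up to 0.125 with an array left out). Sgk1, a kinase of sodium transport, fell by 1.49 alone and by 0.97 with AICAR (interaction 0.52, adjusted p = 0.0115), and the adjusted p was 0.0502 without combination replicate 2.

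Of the synergistic targets, Fkbp5, a co-chaperone that lowers the receptor's hormone affinity, read 6.04 and 6.31 in vehicle, 7.55 and 7.61 after dexamethasone, 5.96 and 5.93 after AICAR and 8.40 and 8.45 after both. Its combination arrays were the highest of the 8, and the rise was 2.65-fold alone and 5.58-fold with AICAR (interaction 1.08, adjusted p = 0.00125). The other probe set of Fkbp5 was not called (interaction 0.48, adjusted p = 0.075, limma). Per2, another clock gene, rose 1.94-fold alone and 6.74-fold with AICAR, although 1 of its 2 probe sets had an interaction of the other sign.

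Of the panel of receptor and kinase genes, Nr3c1, the glucocorticoid receptor itself, fell by 0.31 with dexamethasone alone and by 0.81 with AICAR (interaction -0.50, adjusted p = 0.0283). That call was lost without any 1 of 6 arrays, with adjusted p of up to 0.0896, and its other probe set was emergent (-0.70). Prkaa2, an AMPK catalytic subunit, rose by 0.76 alone and had a value of 0.05 with AICAR (interaction -0.71, adjusted p = 0.00234). Prkaa1, the other catalytic subunit, had an interaction of 0.53, but 1 of its 3 probe sets alone had that sign, and its adjusted p reached 0.063 without AICAR replicate 1. Mapk14, which encodes p38 alpha, had an interaction of -0.29 with a 95% interval from -0.54 to -0.05 (adjusted p = 0.112), Gpt, an alanine aminotransferase, -0.32 from -0.56 to -0.09 (0.0719), and Ppargc1a, the coactivator PGC-1 alpha, -0.21 from -0.52 to 0.10 (0.356). Each of those 3 intervals reaches beyond the additive bound.

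Lipogenic genes were among the reversed genes. Of 27 measured genes of fatty acid and triglyceride synthesis, 13 had a called interaction (48.1%), 12 of them below 0, with a median of -0.27. In this list 6 genes were reversed, 3 synergistic, 3 emergent and 4 additive, where the shares of all genes are 2.04%, 2.67%, 6.94% and 10.4%. Dexamethasone alone raised 9 of the genes and lowered 7, while in AICAR-treated liver it raised 3 and lowered 17. AICAR alone raised 10 of the 27 and lowered 0, so some of these falls began from a raised level. Against vehicle, the combination was called higher for 6 and lower for 13.

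Thrsp, a nuclear protein that promotes lipogenesis, read 10.18 and 10.23 in vehicle, 11.64 and 11.80 after dexamethasone, 11.61 and 11.63 after AICAR and 9.84 and 9.78 after both. Each agent alone raised it, and the combination lay below vehicle on both arrays. The dexamethasone effect went from a 2.86-fold rise to a 3.51-fold fall (interaction -3.33 ± 0.11, adjusted p = 1.35e-06), and its 3 probe sets had the same sign. Acaca, acetyl-CoA carboxylase, which commits carbon to fat, rose 2.83-fold alone and fell 1.75-fold with AICAR (interaction -2.30). AICAR alone raised Acaca by 0.67 on the log2 scale, and its combination minus vehicle value, -0.14, was not called. Fasn, fatty acid synthase, rose 2.04-fold and fell 1.68-fold (interaction -1.78), and Srebf1, their transcriptional activator SREBP-1, rose 1.25-fold and fell 1.33-fold (interaction -0.74). Scd, the stearoyl-CoA desaturase, was emergent: it read 11.73 and 11.72 in vehicle, 11.60 and 11.60 after dexamethasone, 11.82 and 11.88 after AICAR, and 9.65 and 9.62 after both. Only the combination was low for Scd, 4.26-fold below vehicle.

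Of 24 genes of fatty acid oxidation, 8 had a called interaction above 0 and 3 below (45.8%, median 0.23). Eci1, a mitochondrial isomerase of unsaturated fatty acid oxidation, read 10.66 and 10.79 in vehicle, 9.76 and 10 after dexamethasone, 9.92 and 9.98 after AICAR and 11.67 and 11.65 after both. Both agents alone lowered it and the combination exceeded vehicle (interaction 2.55, adjusted p = 1.15e-05), and the other Eci1 probe set was emergent (0.52). Cyp4a3, a fatty acid omega-hydroxylase, fell 2.87-fold with dexamethasone alone and rose 1.90-fold with AICAR (interaction 2.45). Cpt1a, which carries fatty acids into mitochondria, was among those below 0: it rose 2.67-fold alone, had a value of 0.08 on the log2 scale with AICAR that was not called, and had an interaction of -1.34.

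In gluconeogenesis and glucose output, 9 of 25 genes had a called interaction below 0 and 1 above (40.0%, median -0.32), and the others were not called. Pck1, phosphoenolpyruvate carboxykinase, read 12.98 and 12.95 in vehicle, 13.44 and 13.39 after dexamethasone, 13.11 and 13.12 after AICAR and 12.32 and 12.26 after both. It was reversed, with a 1.37-fold rise alone and a 1.77-fold fall with AICAR (interaction -1.27, adjusted p = 9.75e-05). Fbp1, fructose-bisphosphatase, was likewise reversed, as it rose by 0.49 alone and fell by 0.57 with AICAR, and Slc37a4, the glucose 6-phosphate transporter, lost its rise (1.25 alone, 0.18 with AICAR and not called).

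In glycolysis and fructose use 8 of 20 genes were called, none above 0 (40.0%, median -0.26). Pklr, liver pyruvate kinase, and Gckr, the regulator of glucokinase, were both emergent: with AICAR present dexamethasone effects were -1.61 and -1.13 on the log2 scale, and alone they were not called. The other probe set of Pklr was reversed, at 0.67 alone and -1.23 with AICAR. Pygl, liver glycogen phosphorylase, and Gbe1, the glycogen branching enzyme, had interactions of -1.31 and -1.03, in a glycogen list of which 5 of 18 genes were called (27.8%). Igfbp1, a binding protein of insulin-like growth factors that insulin represses, was reversed: it rose 2.74-fold alone and fell 1.40-fold with AICAR (interaction -1.94).

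Amino acid catabolism and the urea cycle had 18 of 33 genes called (54.5%), 15 of them below 0, with a median of -0.32. Bckdhb, a subunit of the enzyme that breaks down branched-chain amino acids, read 10.12 and 10.12 in vehicle, 11.16 and 11.24 after dexamethasone, 10.26 and 10.27 after AICAR and 9.05 and 8.95 after both. It turned from the highest level under dexamethasone to the lowest under the combination (interaction -2.35, adjusted p = 4.99e-06). Fah, the last enzyme of tyrosine breakdown, was emergent with an interaction of -1.15. In contrast, 10 genes of this list were additive, among them the urea cycle enzymes Cps1 (0.04), Ass1 (-0.19) and Arg1 (0.26), whose intervals all lay within the bound and which were chosen here after their values were seen.

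Bile acid genes held 13 called of 22 (59.1%), 9 below 0 and 4 above, with 7 emergent. Alongside Nr0b2, Abcb11, the bile salt export pump, was emergent (interaction -1.15, adjusted p = 0.000199). Cyp7a1, which catalyses the first step from cholesterol to bile acids, read 9.43 and 9.51 in vehicle, 10.29 and 10.29 after dexamethasone, 11.57 and 11.58 after AICAR and 10.66 and 10.71 after both. Each agent raised it alone, while with AICAR present dexamethasone lowered it 1.86-fold (interaction -1.72). Cyp27a1, of the alternative synthesis route, was reversed with an interaction of -1.02.

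**Figure D3:**
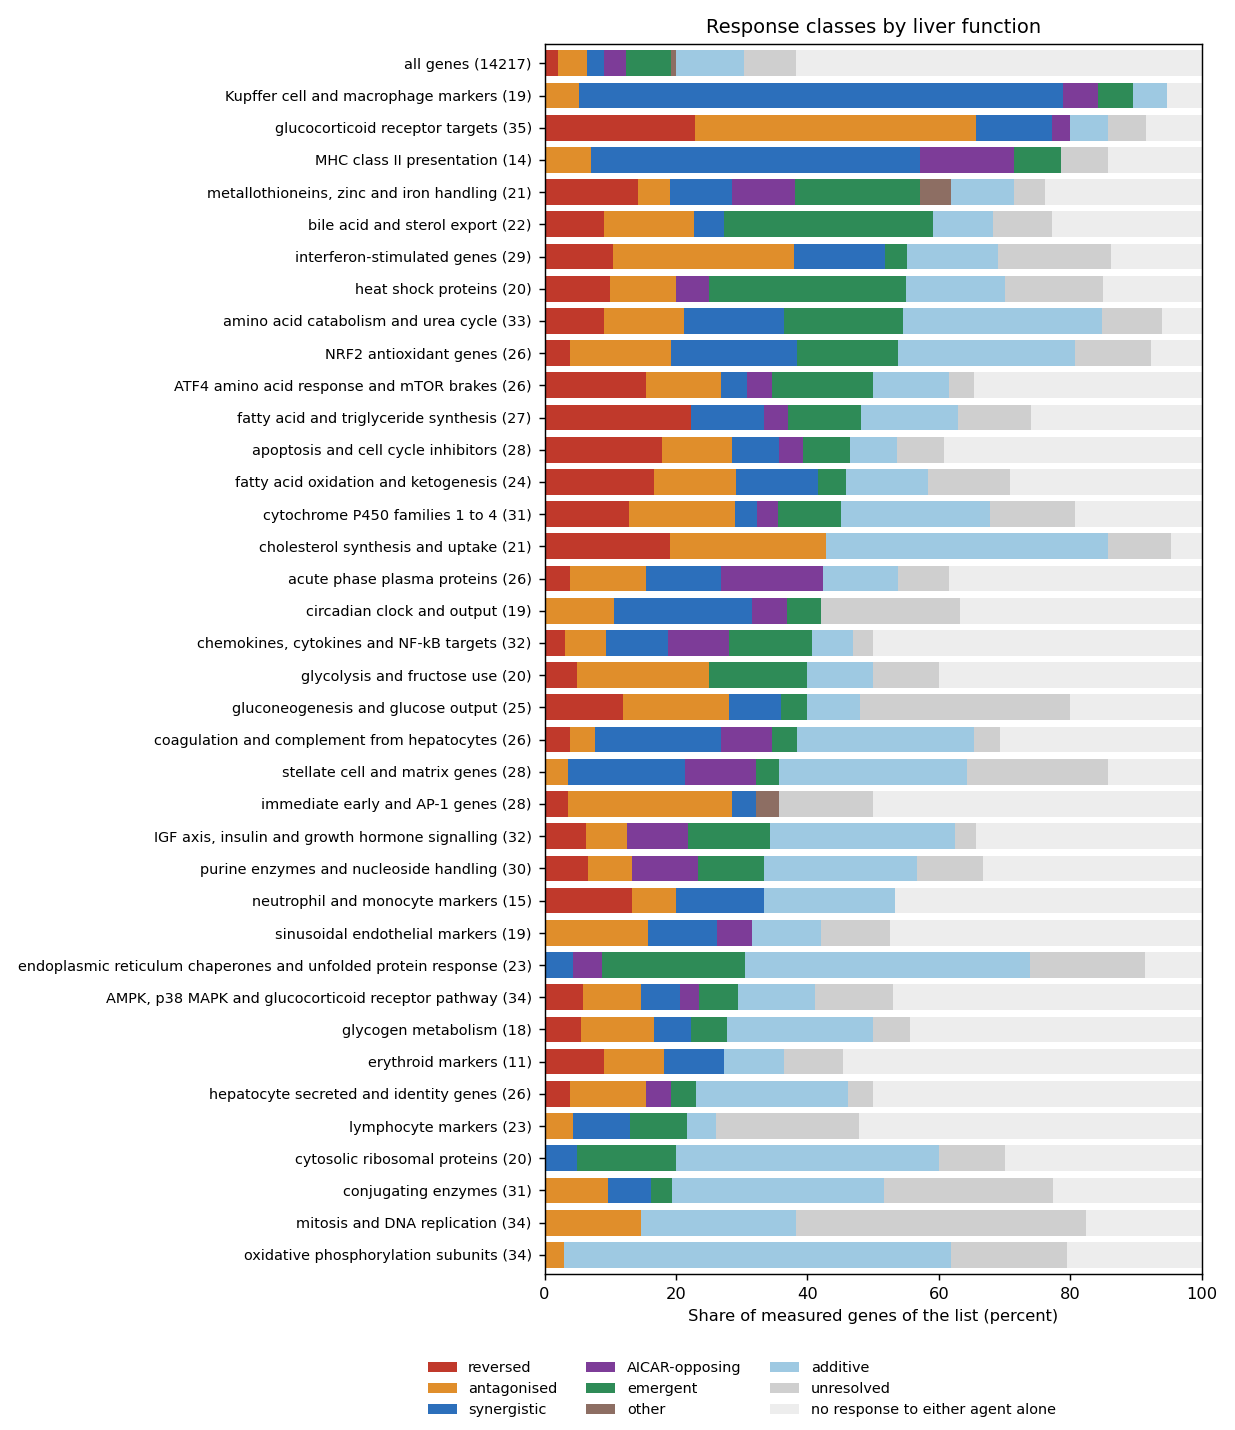
Each bar is a gene list, with the number of measured genes in brackets, divided into response classes as a percentage of those genes, ordered by the share with a called interaction and headed by all genes. Macrophage markers are mostly synergistic (14 of 19), glucocorticoid receptor targets mostly antagonised (15 of 35) or reversed (8 of 35), and oxidative phosphorylation mostly additive (20 of 34).

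Macrophage genes were mostly synergistic. Of 19 measured Kupffer cell and macrophage markers, 17 had a called interaction (89.5%), 16 below 0, with a median of -2.71. Of the 19, 14 were synergistic. Dexamethasone alone lowered 15 of the 19, with a median of -0.94, and in AICAR-treated liver it lowered 17, with a median of -3.43. AICAR alone raised 4 and lowered 1. In bulk tissue, fewer macrophages and less RNA per macrophage cannot be told apart.

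Cd5l, a secreted macrophage protein, had the largest negative interaction of all genes. It read 9.85 and 9.75 in vehicle, 7.94 and 7.93 after dexamethasone, 10.10 and 10.07 after AICAR and 3.10 and 3.15 after both. The combination mean lay below 3.84, taken as a floor (the smallest 25th percentile among the arrays), so the size of its interaction, -5.10 ± 0.10, is uncertain. Its other probe set was not called (-0.73, adjusted p = 0.0873, limma). Clec4f, a lectin restricted to Kupffer cells, read 10.50 and 10.66, 9.54 and 9.71, 10.09 and 10.09, and 5.40 and 5.50 in the 4 groups, in the order just given. Its fall went from 1.94-fold to 25-fold, while Csf1r, the receptor for the macrophage growth factor, went from 1.65-fold to 10.7-fold.

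The summed linear level of the 19 macrophage markers was 9647 and 9776 in vehicle, 5775 and 6248 after dexamethasone, 10670 and 10630 after AICAR and 3189 and 3179 after both. None of the 19 had a group mean below 3.84 in the first 3 groups, and 4 did after both agents. The summed level of 26 hepatocyte genes differed far less, from 212770 to 220460 over all 8 arrays, and 6 of the 26 (23.1%) had a called interaction. That sum is led by very bright genes on arrays set to a common distribution, so it cannot show that hepatocyte RNA stayed equal. Cd14, a receptor for endotoxin, was the 1 marker called above 0 (0.53), and Lyz2, lysozyme, was additive (-0.01); both are named after their values were seen.

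MHC class II presentation moved with the macrophage markers: 11 of 14 genes were called, all below 0 (78.6%, median -1.53), and 7 were synergistic. RT1-Db1, a class II beta chain, fell by 1.07 alone and by 3.02 with AICAR, with an interaction of -1.08 in its other probe set, and Ctss, a protease of antigen processing that is also on the macrophage list, fell by 0.54 and by 3.26. RT1-Bb is counted among the synergistic genes below 0 through its brighter probe set (-4.03). Its other probe set was called with the opposite sign (2.81, reversed), so the direction of this gene is uncertain. The part of the macrophage marker level in this list was not tested. Lymphocyte markers had 5 of 23 called (21.7%, near the 20.0% of all genes), 4 below 0, with a median of -0.06. The called gene with the largest interaction was Ptprc (-1.58), which encodes CD45 and marks all leukocytes. The summed level of the list was 1002 and 1005 in vehicle, 791 and 752 after dexamethasone, 918 and 977 after AICAR and 670 and 668 after both, so it was lower than vehicle after dexamethasone alone as well. Sinusoidal endothelial markers had 6 of 19 called (31.6%), 3 in each direction, and stellate and matrix genes 10 of 28 (35.7%), 9 below 0. AICAR alone raised 18 of those 28 genes and lowered 1, and against vehicle the combination raised 11 and lowered 9. Their summed level was 16040 and 16010 in vehicle, 18520 and 18570 after AICAR and 19420 and 19510 after both.

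The neutrophil and monocyte list had 5 of 15 genes called (33.3%), 3 above 0 and 2 below, with a median of 0.02. S100a8 and S100a9, calcium-binding proteins of inflammatory myeloid cells, were reversed upwards. S100a8 fell by 1.09 with dexamethasone alone and rose by 0.71 with AICAR (interaction 1.80, adjusted p = 0.00182), and S100a9 had an interaction of 1.56. Fcgr3a, an antibody receptor also found on macrophages, was synergistic downwards (-1.62).

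Of 29 interferon-stimulated genes, 15 had a called interaction below 0 and 1 above (55.2%, median -0.40), and 8 were antagonised. Mx1, an antiviral GTPase, rose by 0.99 alone and fell by 0.80 with AICAR (interaction -1.79), while the 2 probe sets of its paralog Mx2 disagreed. The brighter Mx2 probe set was additive, with a rise of 2.03 alone and 1.93 with AICAR, and the other was antagonised, with 3.23 and 0.92 (interaction -2.30, adjusted p = 1.25e-05, limma). Oas1b, of the RNA-sensing synthetases, rose by 2.65 alone and had a value of 0.09 with AICAR that was not called, but 3 of its group means lay below 3.84. Gbp2, an interferon-induced GTPase, fell further with AICAR, with an interaction of -1.99. Dexamethasone alone raised 15 and lowered 8 of the 29 (median 0.53), whereas it lowered 15 of the 19 macrophage markers. With AICAR it raised 11 and lowered 11 of the interferon list (median 0.06).

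Acute phase genes were split, with 11 of 26 called (42.3%), 4 above 0 and 7 below, and 4 were AICAR-opposing. A2m, the alpha-2-macroglobulin that is the main acute phase protein of the rat, read 9.56 and 9.43 in vehicle, 13.73 and 13.69 after dexamethasone, 7.49 and 7.72 after AICAR and 13.75 and 13.77 after both. AICAR lowered it, and the 4 arrays with dexamethasone lay close together at a high level. The dexamethasone rise was thus 18.6-fold from vehicle and 71.2-fold from AICAR (interaction 1.93, adjusted p = 4.64e-05).

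Lbp, which binds bacterial lipopolysaccharide, read 8.55 and 8.60 in vehicle, 8.36 and 8.44 after dexamethasone, 11.42 and 11.49 after AICAR and 8.58 and 8.64 after both. AICAR alone raised it 7.37-fold, and the combination differed from dexamethasone alone by 1.15-fold. Lcn2, lipocalin 2, a siderophore-binding protein, rose by 5.88 with AICAR alone and by 0.85 with dexamethasone alone. Its combination arrays, 9.59 and 9.46, stayed far above vehicle, 5.05 and 5.02, and below AICAR, 10.90 and 10.93 (interaction -2.24). Under the combination Hamp was within 1.13-fold and Lbp within 1.02-fold of vehicle, while Lcn2 was not near it.

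Metal handling had 13 of 21 genes called (61.9%), 8 above 0 and 5 below. Tfrc, the transferrin receptor, read 9.53 and 9.51 in vehicle, 9.93 and 9.98 after dexamethasone, 9.67 and 9.67 after AICAR and 11.61 and 11.63 after both. It rose 1.36-fold alone and 3.86-fold with AICAR (interaction 1.51, adjusted p = 3.36e-05). Hmox1, haem oxygenase, which is also abundant in macrophages, fell by 0.46 alone and by 1.58 with AICAR.

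Among emergent genes that rose, Fabp4, a fatty acid binding protein of adipocytes and macrophages, read 4.89 and 4.50 in vehicle, 4.59 and 4.66 after dexamethasone, 4.71 and 4.79 after AICAR and 8.10 and 8.07 after both. The single-agent arrays lay within the range of the vehicle arrays, and the combination stood 10.4-fold above vehicle (interaction 3.40 ± 0.17, adjusted p = 8.81e-06). Creld2, a chaperone of the endoplasmic reticulum, rose 3.34-fold with AICAR present and was not called with dexamethasone alone (interaction 1.85). Ccl2, a monocyte chemokine, had an interaction of 1.72. Egfr, the epidermal growth factor receptor, was emergent downwards, with an interaction of -1.51, although 1 of its 3 probe sets had the other sign.

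Heat shock proteins had 11 of 20 called (55.0%), 9 above 0 (median 0.33), and 6 of the 20 were emergent. Hsph1, a large HSP110 chaperone, fell by 0.35 with dexamethasone alone and rose by 1.55 with AICAR (interaction 1.90; 2.27 and AICAR-opposing in its other probe set), and Chordc1, a co-chaperone of HSP90, was emergent (0.99). Chaperones of the endoplasmic reticulum had 7 of 23 called (30.4%), with Creld2, Manf (0.74) and Hspa5 (0.49) emergent, and 10 were additive.

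Ccnd1, cyclin D1, which drives entry into the cell cycle, read 8.91 and 8.92 in vehicle, 6.37 and 6.59 after dexamethasone, 7.84 and 7.81 after AICAR and 8.68 and 8.67 after both. Each agent lowered it, and the combination was within 1.18-fold of vehicle, so dexamethasone lowered it 5.40-fold alone and raised it 1.80-fold with AICAR (interaction 3.28 ± 0.12, adjusted p = 2.19e-06). All 3 probe sets of Ccnd1 were called. Of 34 genes of mitosis and DNA replication, 5 were called (14.7%, against 20.0% of all genes), all above 0, with a list median of 0.29. Dexamethasone lowered 28 of the 34 alone and 29 with AICAR, and 8 were additive and 15 unresolved. Ccnb1, cyclin B1, was additive, and fell by 2.36 alone and by 2.29 with AICAR, although its other probe set, also not called, had the opposite sign of interaction.

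Oxidative phosphorylation was mostly additive on the common distribution. Dexamethasone raised 26 of 34 measured subunits alone (median 0.33) and 22 with AICAR (median 0.37), 20 were additive, and 1 had a called interaction (2.94%). That 1 was Cox5a, a subunit of cytochrome oxidase, at -0.59, singled out here after its values were seen. Cytosolic ribosomal proteins had 4 of 20 called (20.0%, equal to the background), 8 additive, and the calls of Rpl14, Rpl18, Rpl22 and Rps6 were each lost with an array left out.

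Cholesterol synthesis combined additive and antagonised genes. Of 21 genes, 9 were additive, 5 antagonised and 4 reversed, and 9 were called (42.9%), 8 above 0. The list median was 0.11 and turned to -0.01 after cyclic loess. AICAR alone raised 17 and dexamethasone alone lowered 16. Idi1, an isomerase of isoprenoid synthesis, fell by 1.08 with dexamethasone alone and rose by 0.47 with AICAR (interaction 1.55), and Sqle, squalene epoxidase, was reversed in the same way (interaction 1.17).

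The single genes of the additive class with the largest dexamethasone effects included Cidea, a lipid droplet protein. It read 6.14 and 6.28 in vehicle, 8.70 and 8.93 after dexamethasone, 5.86 and 5.86 after AICAR and 8.51 and 8.43 after both. Its rise was 6.10-fold alone and 6.11-fold with AICAR, and the 95% interval of its interaction was -0.31 to 0.31. Edem1, which sorts misfolded proteins for degradation, rose 3.85-fold and 3.57-fold (interval -0.37 to 0.16). Osgin1, an oxidative stress response gene, fell 4.58-fold and 4.63-fold (interval -0.23 to 0.20).

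**Figure D4:**
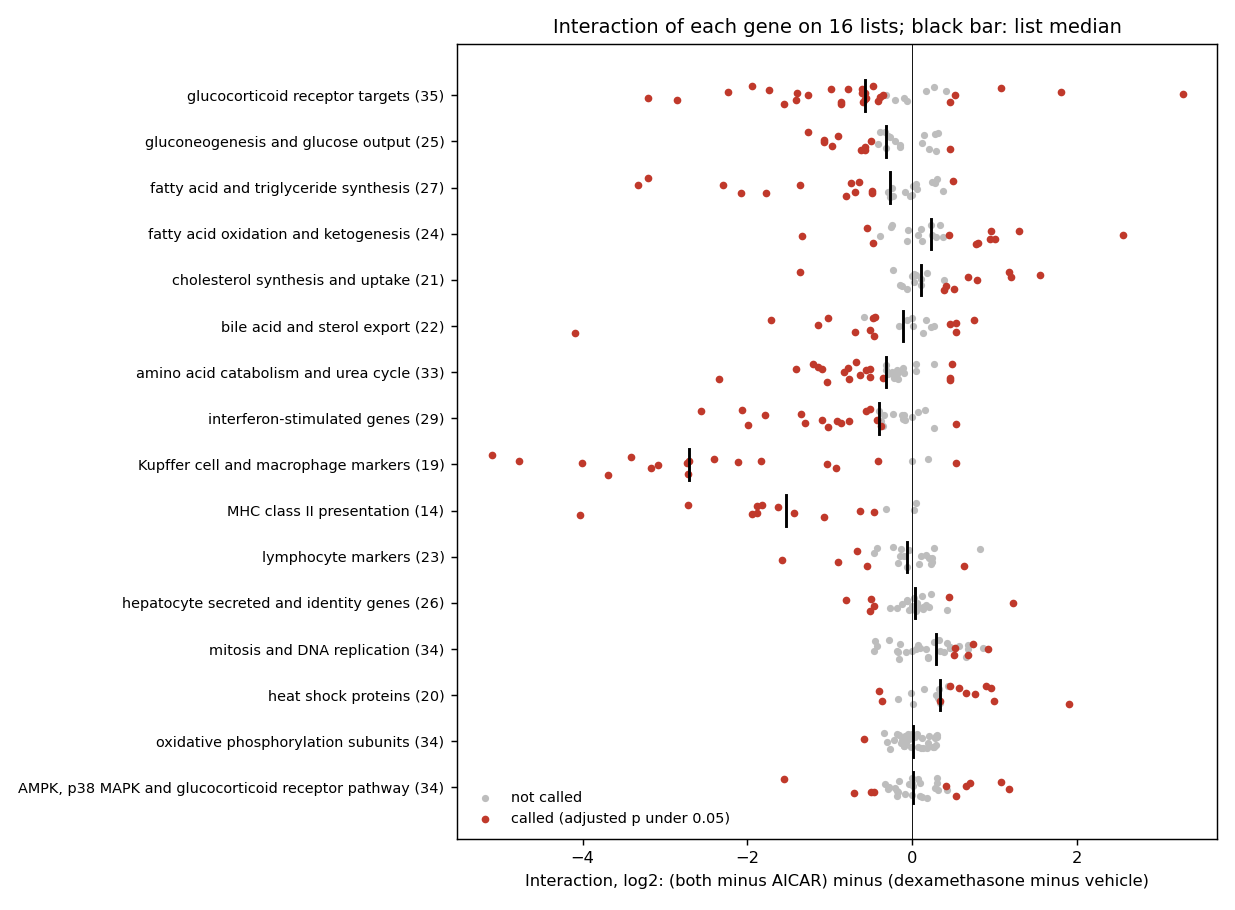
Interaction in log2 units for every measured gene of 16 lists, in red where called by limma at an adjusted p under 0.05, with the list median as a black bar. Medians run from -2.71 for macrophage markers to 0.33 for heat shock proteins, and that of cholesterol synthesis (0.11) turns to -0.01 after cyclic loess. Centring on spike-ins would move every point up by 1.1, which turns each median between -1.1 and 0.

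The largest interaction of all genes was that of RT1-N2, a class I major histocompatibility gene. It read 7.14 and 6.95 in vehicle, 3.84 and 3.51 after dexamethasone, 4.47 and 4.36 after AICAR and 8.70 and 8.75 after both (interaction 7.68 ± 0.16, adjusted p = 9.62e-08). Vehicle and combination arrays were high and both single-agent groups low, and the dexamethasone mean lay below 3.84. RT1-CE12 had the same order, with an interaction of 4.63. Over 20 class I probe sets of 12 symbols, 10 were called, where the share of all probe sets is 15.6%. The 6 above 0 belonged to 6 symbols, and the 4 below 0 were all probe sets of RT1-S3 (-0.42 to -0.76). These loci are near-identical copies that differ in sequence between rats, so the gene read by a probe set is uncertain, and treatment and the animals sampled cannot be told apart for them.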

How the data were processed

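Liver RNA of 4 groups of 2 arrays was measured on an Affymetrix rat array. The deposited log2 values are RMA values, for which the submitters' processing notes name affy; its version and the base of the logarithm are not given in the sources used here, and the values, which span the range that RMA writes, were read as log2. RMA corrects background, sets arrays to a common distribution and summarises probes, and it compresses changes of dim probe sets, so 3.84, the lowest lower quartile of an array, marked uncertain sizes. The arrays give no counts, and their number limits the precision: 95% intervals of interactions reached a median of 0.301 to either side.

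The 57 array controls were kept out, leaving 31042 probe sets. Of these, 20826 carried 1 gene symbol in the platform annotation, 436 several and 9780 none here. Gene IDs of 20758 matched the GRCr8 gene table, used for names. A gene was represented by its probe set of highest mean, which gave 14217 genes.

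All tests used limma 3.58.1 in R 4.3.3: each group had 1 coefficient, variances were moderated by eBayes (4.58 degrees of freedom from the prior, 4 from the residuals), and p-values were adjusted by Benjamini-Hochberg across the 31042 probe sets. An adjusted p under 0.05 was a call. No permutation test was made, as 2 against 2 cannot give a two-sided exact p below 0.333. The code was tested on simulated data. Gene lists (37, with 865 genes measured) were described by counts and medians, with no set test.

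Named genes were the 8 largest interactions of each class, 4 of each sign where available, for each list with 3 or more calls at most 4 called genes of lowest p, the 8 additive genes with the largest dexamethasone effect, and a panel of glucocorticoid and metabolic genes. The classes, members and lists were chosen with earlier results of these data known.

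The alternatives were cyclic loess, centring on the brighter probe sets, a filter on dim probe sets (mean of 5 or more in a group), a trended and robust prior, a 2-fold minimum, a replicate block, additivity of unlogged values, additive bounds of 0.3 and 1, averaging a gene's probe sets, and leaving out each array. Centring on spike-ins was added after the data were seen.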

Additional observations from a re-analysis of the deposited data

Results flagged for a closer look

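The dexamethasone effect differed between liver without and with AICAR, by the interaction test in limma, at 4858 probe sets. By class these included 1097 antagonised, 583 synergistic, 864 AICAR-opposing, 1607 emergent and 515 reversed. The reversed genes with the largest interactions were RT1-N2 (7.68), RT1-CE12 (4.63), Ccnd1 (3.28) and Npy (2.88) above 0, and Thrsp (-3.33), Lpin1 (-3.20), AA926063 (-3.15) and Gadl1 (-2.52) below 0. Npy, the neuropeptide Y gene, read 7.73 and 7.78 in vehicle, 7.08 and 7.12 after dexamethasone, 7.39 and 7.46 after AICAR and 9.67 and 9.63 after both, so the combination stood above all other arrays. AA926063, a transcript without a gene name here, read 6.83 and 6.62 after dexamethasone and 4.15 and 3.55 after both.

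The array controls, which are outside the tested probe sets, also gave unequal values in the groups, which were not tested. The poly-A spike-ins had an interaction of -1.1, and the 5S rRNA control was 1.22 higher after both agents than in vehicle (7.51 against 6.29). The 18 hybridisation spike-ins, added after labelling, had an interaction of -0.18. The part of these differences in the interaction calls was not tested beyond the centring on spike-ins given above.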

How the results depend on the processing

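Of 178 named genes 167 had a called interaction, and 148 of these kept call and direction under every alternative for normalization, centring, filter, prior, block, unlogged values, gene means and arrays left out. Of 2670 checks, 2551 kept the call status, 103 lost the call and 15 gained it. In 1 check a called interaction reversed: Sult1c3 on unlogged values, 86.4 units (adjusted p = 0.899, limma), against -0.68 on the log2 scale. Where neither fit gave a call, the check counted as kept whatever the sign. In these counts and checks, centring was on the brighter probe sets alone. Centring on spike-ins was not among them, and it turns the sign of each called interaction between -1.1 and 0. On unlogged values 4840 of the called probe sets kept their sign and 18 did not. Synergistic probe sets numbered 891 with the filter on dim probe sets and 1118 with the trended and robust prior, which also gave 909 reversed, against 583 and 515. A 2-fold minimum left 767 calls, with 126 antagonised, 133 synergistic, 121 AICAR-opposing, 147 emergent and 240 reversed. Additive probe sets were 396 with a bound of 0.3 and 4763 with a bound of 1, against 2535. Centring on spike-ins gave 30440 calls. Class counts do not show which members stayed. Under cyclic loess 88.3% of reversed, 87.0% of synergistic, 81.6% of antagonised, 78.5% of additive, 74.5% of emergent and 71.9% of AICAR-opposing probe sets kept their class. The trended and robust prior kept 62.0% of emergent ones. With any 1 array left out, a smaller share of every class stayed than under loess. With 1 array left out, which leaves 1 array in a group assumed to vary like the others, calls ranged from 2910 to 3991, additive from 1064 to 1724, antagonised from 684 to 892, synergistic from 305 to 414, AICAR-opposing from 299 to 784, emergent from 951 to 1601 and reversed from 328 to 391. Each of the 8 arrays moved at least 1 class by over 1.5 times when left out, and the emergent class moved so with the combination arrays alone. With the replicate block there were 4484 calls. That fit moved no class by over 1.5 times, and deviations of same-numbered arrays correlated between -0.0418 and 0.16, so the numbers were not taken as pairs. Of 111 counts of called list genes under loess, centring and gene means, 5 moved by over 1.5 times. Dim values limit sizes: 3.42% of synergistic and 2.41% of reversed genes had a group mean under 3.84.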

Other observations

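Several lists not described above also held called interactions, given here as values. Of 19 clock genes, 8 had a called interaction (42.1%, against 20.0% of all genes). Nr1d2, which encodes the repressor REV-ERB beta, read 7.20 and 7.34 in vehicle, 6.28 and 6.40 after dexamethasone, 7.77 and 7.87 after AICAR and 5.02 and 4.98 after both (interaction -1.89). The combination arrays were the lowest, and 1 of its 3 probe sets was not called (-0.38). Cry1, another repressor of the clock, was synergistic upwards (0.56). Of 26 antioxidant genes of the NRF2 list, 14 were called (53.8%), 7 in each direction. Nfe2l2, which encodes NRF2, fell by 1.05 with dexamethasone alone and had a value of -0.06 with AICAR that was not called.

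Cytochrome P450 genes had 14 of 31 called (45.2%). Cyp1a1, which oxidises aromatic hydrocarbons, rose by 2.62 with dexamethasone alone, and its value with AICAR was 0.30, not called (interaction -2.31). In the list of the amino acid response, 13 of 26 were called (50%), and Nupr1, a stress-induced chromatin protein, was reversed (interaction -1.97). Cxcl1, a neutrophil chemokine, fell by 1.83 alone and rose by 0.65 with AICAR. Coagulation and complement genes of hepatocytes had 10 of 26 called, all below 0 (38.5%), while conjugating enzymes had 6 of 31 (19.4%, near the 20.0% of all genes).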
